A study of Homo sapiens with 8 samples.

Results

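The 35 genes described here encode the enzymes, carriers and regulators of fatty acid oxidation, together with genes that the nuclear receptor PPARA is known to induce in liver. They were chosen by name for their role, with earlier results of these data known. All 35 were among the 17561 genes of the expression table. RNA was measured in HepG2, a human hepatic cell line, 48 h after transfection with the plasmid pGRHL2 or with the vector pcDNA3. Each plasmid had 4 libraries. According to the methods, HepG2 cells were cultured in medium with serum, bovine insulin and dexamethasone. GRHL2 is an epithelial transcription factor, and pGRHL2 carried its flag-tagged cDNA under the EEF1A1 promoter in a bicistronic construct that also expressed enhanced GFP. The plasmids therefore differed in more than the GRHL2 insert, and effects of the reporter or promoter and of GRHL2 cannot be told apart. The methods describe 4 independent replicates, and transfected and untransfected cells of a dish were not separated by any step given there.

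In fatty acid oxidation, fatty acids are activated to acyl-CoA, pass into mitochondria through the carnitine shuttle and are shortened by rounds of dehydrogenation, hydration, oxidation and thiolysis. Peroxisomes shorten the longest and the branched chains. In hepatocytes the pathway is induced in fasting by PPARA, which binds DNA with RXR as a heterodimer, and by its coactivator PPARGC1A.

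Of the 35 genes, only CREB3L3 passed the test: it fell by 26.7% with pGRHL2 (log2 FC -0.45 ± 0.06, SD, n = 4 pairs). CREB3L3 is a liver-enriched transcription factor, held in the endoplasmic reticulum until cleaved, that acts with PPARA on genes of fasting metabolism. No member was called higher, and those next in size, the carnitine carrier SLC25A20 and the lipid droplet protein PLIN2, missed the threshold. PPARA itself and CPT1A, the rate-limiting carnitine palmitoyltransferase, had log2 FC of 0.03 and -0.02. The call was made with limma, pairing libraries by replicate number, at an adjusted p under 0.05 over all genes. In the whole table, 1.69% of genes were called higher and 0.501% lower by that rule.

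GRHL2 itself was higher in all 4 pairs with pGRHL2 (log2 FC 9.48 ± 0.57, limma adjusted p = 4.84e-08). The hepatic markers ALB, AFP, APOA1, TTR and SERPINA1 had mean levels of 9.83 to 17.1 on the log2 scale, where the median gene had 6.72. The 4 cholangiocyte markers had levels of 5.35 to 13.9. Of 6 immune, endothelial and stromal markers, PTPRC, CD68 and COL1A2 were absent from the expression table. The 3 present had levels of 5.08 to 5.83. In the deposited table, libraries of the same replicate number mirror each other around a common mean, so groups that do not overlap are those in which all 4 pair differences had 1 sign. Fewer cells expressing a gene and less RNA per cell cannot be told apart in such bulk libraries.

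The promoter of CREB3L3 is shown because this gene carried the change, beside that of FABP1, the liver fatty acid binding protein and a known PPARA target. Of the 29 members with a RefSeq promoter, these were the 2 whose promoters held the nuclear receptor hexamer AGGTCA, searched on both strands. Both are the 250 bases before the RefSeq start, 5′ to 3′ on the strand of the gene in GRCh38.p14, at chr19:4153381-4153630 on the plus strand and chr2:88128063-88128312 on the minus strand. Capitals mark the hexamer, which in FABP1 lies on the opposite strand as TGACCT.
CREB3L3: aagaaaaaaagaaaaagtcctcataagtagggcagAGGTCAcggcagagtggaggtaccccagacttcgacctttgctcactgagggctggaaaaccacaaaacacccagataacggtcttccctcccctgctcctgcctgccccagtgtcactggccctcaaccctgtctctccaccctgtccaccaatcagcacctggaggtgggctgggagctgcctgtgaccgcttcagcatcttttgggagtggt
FABP1: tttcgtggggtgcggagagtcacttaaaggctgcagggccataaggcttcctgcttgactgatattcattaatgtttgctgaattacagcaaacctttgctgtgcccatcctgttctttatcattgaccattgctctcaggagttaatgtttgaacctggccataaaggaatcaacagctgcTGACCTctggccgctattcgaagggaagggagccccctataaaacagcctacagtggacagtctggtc

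A RefSeq promoter was found for 29 of the 35 members. ACAA1, ACOX2, DECR1, DECR2, EHHADH and ETFDH had none and were not searched. The hexamer AGGTCA stood in 2 of the 29, against 9.06% of the 12829 promoters of genes in the table. The GRHL motif AACCNGTT was in 0 of 29 member promoters (1.15% in the table). Likewise, 0 of 29 held AGGTCA repeated exactly with 1 base between, a strict form of the PPARA element (0.0156% in the table). Both motifs are so rare in the table that 0 of 29 cannot set the members apart from other genes. The cAMP response core TGACGT was in that of ACSL4 alone (9.63% in the table). Matches describe these letters in this window and are not binding sites.

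CREB3L3 lies on chromosome 19 (hg38, chr19:4153631-4173054, plus strand), and none of its exon bases were shared with another annotated gene. On the log2 scale it stood at 7.37, 7.31, 7.33 and 7.29 in the pGRHL2 libraries, replicates 1 to 4. In the pcDNA3 libraries, in the same order, it stood at 7.73, 7.79, 7.77 and 7.81. Every pGRHL2 library was below every pcDNA3 library. The log2 FC had a 95% limma interval of -0.57 to -0.33 and a limma adjusted p of 0.00545. The call was kept when each replicate in turn was left out, with limma adjusted p of 0.0302 to 0.0363, and was lost without the variance trend (limma adjusted p = 0.0548).

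**Figure D1:**
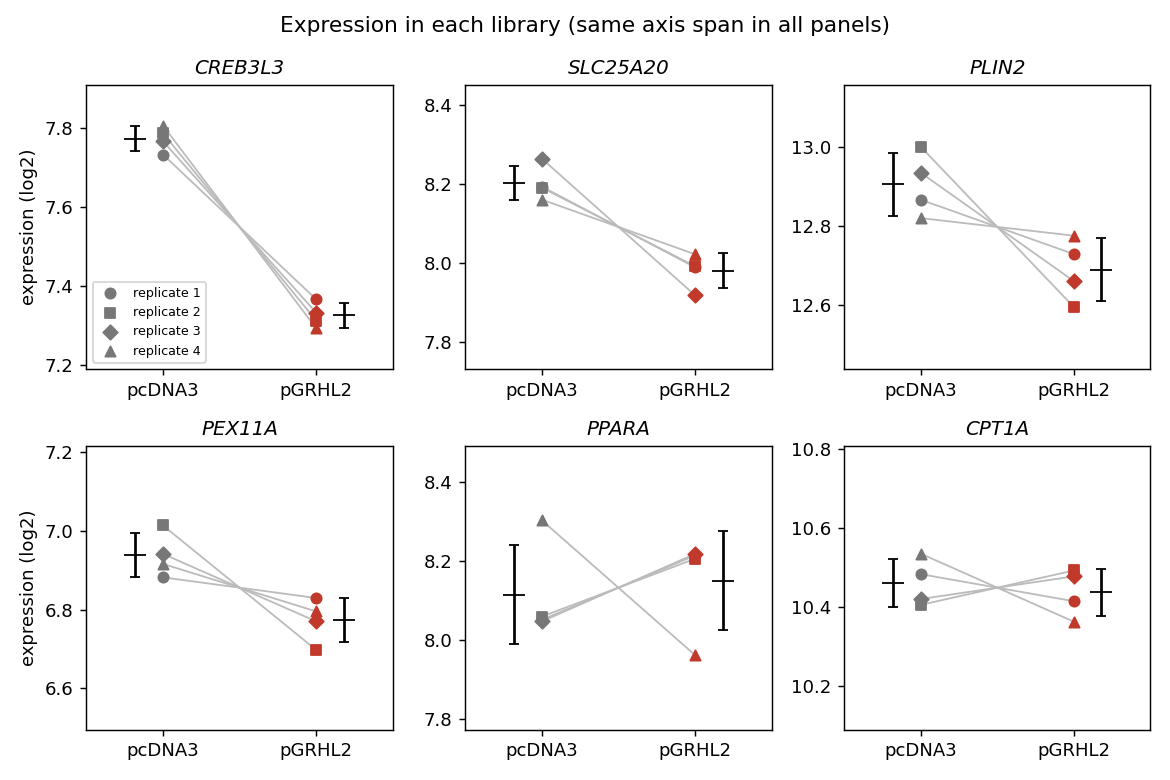
Log2 expression of CREB3L3, SLC25A20, PLIN2, PEX11A, PPARA and CPT1A in each of the 8 libraries, with lines joining libraries of the same replicate number and bars for the mean and SD of each group. Libraries of a pair mirror each other around a common mean, so these bars do not show the spread of independent libraries. CREB3L3 was lower in all 4 pGRHL2 libraries (7.29 to 7.37) than in all 4 pcDNA3 libraries (7.73 to 7.81).

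The other regulators did not pass the test. PPARA, the receptor itself, had values of 8.21, 8.21, 8.22 and 7.96 with pGRHL2 and 8.05, 8.06, 8.05 and 8.30 with pcDNA3. It was higher with pGRHL2 in pairs 1 to 3 and lower in pair 4, so that the groups overlapped (log2 FC 0.03 ± 0.25, limma adjusted p = 0.912). Its 95% limma interval ran from -0.17 to 0.24. Without replicate 4 the change was 0.16 on the log2 scale (limma adjusted p = 0.22). PPARGC1A, the coactivator, stood at a mean level of 7.31 and differed by -0.13 ± 0.12 on the log2 scale (limma adjusted p = 0.327).

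Of the carnitine shuttle, all 3 genes had a log2 FC below 0 and none was called. SLC25A20, which exchanges acylcarnitine for carnitine across the inner mitochondrial membrane, had values of 7.99, 7.99, 7.92 and 8.02 with pGRHL2 and 8.19, 8.19, 8.26 and 8.16 with pcDNA3. Its groups did not overlap (log2 FC -0.22 ± 0.09, 95% limma interval -0.35 to -0.09), but the limma adjusted p was 0.0952. CPT1A, on the outer membrane, had 10.41, 10.49, 10.48 and 10.36 with pGRHL2 and 10.48, 10.41, 10.42 and 10.54 with pcDNA3. Its pairs split evenly in sign, with a log2 FC of -0.02 ± 0.12 and a 95% limma interval of -0.16 to 0.12. CPT2, on the inner membrane, had a level of 5.72 and a log2 FC of -0.08 ± 0.14.

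The acyl-CoA dehydrogenases, which take the opening step of each round, went both ways and none was called. ACADM, for medium chains, had 9.67, 9.69, 9.52 and 9.63 with pGRHL2 and 9.73, 9.71, 9.88 and 9.78 with pcDNA3. Every pGRHL2 value was the lower, but the change was not called (log2 FC -0.15 ± 0.15, limma adjusted p = 0.346). ACADVL, for very long chains, had 12.40, 12.37, 12.43 and 12.38 against 12.31, 12.34, 12.29 and 12.33, so that here every pGRHL2 value was the higher (log2 FC 0.08 ± 0.05, limma adjusted p = 0.40). ACADS, for short chains, had a log2 FC of -0.04 ± 0.09. ACADSB, for short branched chains, was the most variable member, with pair differences from -0.31 to 0.47 (SD 0.33).

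The mitochondrial hydratase, dehydrogenase and thiolase steps had 5 of 5 log2 FC above 0, and none was called. HADHA and HADHB are the subunits of the mitochondrial trifunctional protein. HADHA had 11.24, 11.23, 11.21 and 11.17 with pGRHL2 and 11.16, 11.16, 11.18 and 11.23 with pcDNA3. HADHB had 11.30, 11.36, 11.30 and 11.31 against 11.26, 11.21, 11.26 and 11.26. The HADHB groups did not overlap and the HADHA groups did, with log2 FC of 0.07 ± 0.06 and 0.03 ± 0.06. The log2 FC of the hydratase ECHS1 was 0.06 ± 0.10, that of the dehydrogenase HADH 0.04 ± 0.22 and that of the thiolase ACAA2 0.01 ± 0.09.

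Auxiliary enzymes handle the double bonds of unsaturated chains. The isomerases ECI1 and ECI2 had log2 FC of 0.04 ± 0.15 and 0.05 ± 0.11, and the dienoyl-CoA reductases DECR1 and DECR2 had 0.04 ± 0.09 and -0.02 ± 0.05. DECR2, the peroxisomal reductase, had the lowest level of the 35 genes (0.39). ECI2 shared 29.8% of its annotated exon bases with other genes, DECR2 14.3% and the thiolase gene ACAA1 21.2%, and the part of this in their values was not tested. ETFA and ETFB, which carry electrons from the dehydrogenases, and ETFDH, which passes them to ubiquinone, had log2 FC of -0.06 ± 0.13, 0.02 ± 0.29 and -0.09 ± 0.11.

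Of the 6 peroxisomal genes, 4 had a log2 FC below 0. PEX11A, which acts in peroxisome division, had 6.83, 6.70, 6.77 and 6.80 with pGRHL2 and 6.88, 7.01, 6.94 and 6.92 with pcDNA3. The groups did not overlap (log2 FC -0.16 ± 0.11), and the limma adjusted p was 0.198. EHHADH, the peroxisomal bifunctional enzyme and a classical PPARA target, had 9.20, 9.33, 9.17 and 9.11 against 9.38, 9.25, 9.40 and 9.46. It was lower with pGRHL2 in every pair but pair 2 (log2 FC -0.17 ± 0.18, limma adjusted p = 0.331). ABCD3, a transporter of the peroxisomal membrane, had the highest log2 FC of all members, 0.09 ± 0.05, from values of 10.34, 10.37, 10.35 and 10.39 against 10.30, 10.26, 10.29 and 10.25 (limma adjusted p = 0.46). The log2 FC of the branched-chain oxidase ACOX2 was -0.02 ± 0.11, of the bifunctional enzyme HSD17B4 -0.07 ± 0.16 and of ACAA1 0.03 ± 0.15.

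None of the 4 genes of fatty acid activation and binding was called. The acyl-CoA synthetases ACSL1, ACSL3 and ACSL4 had log2 FC of -0.04 ± 0.11, -0.01 ± 0.15 and 0.05 ± 0.23. FABP1, the other gene found with the hexamer in its promoter, had 7.20, 7.33, 7.05 and 7.07 with pGRHL2 and 7.12, 6.99, 7.27 and 7.25 with pcDNA3. Its pairs split evenly in sign, with a 95% limma interval of -0.20 to 0.22.

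Among PPARA-responsive genes outside the oxidation steps, PLIN2 coats lipid droplets, PDK4 restrains pyruvate dehydrogenase and ANGPTL4 inhibits lipoprotein lipase. PLIN2, the most abundant of the 35, had 12.73, 12.59, 12.66 and 12.77 with pGRHL2 and 12.87, 13.0004, 12.93 and 12.82 with pcDNA3. Every pGRHL2 value was the lower (log2 FC -0.22 ± 0.16, 95% limma interval -0.35 to -0.08), with a limma adjusted p of 0.112. PDK4 had 3.07, 3.12, 3.07 and 3.08 against 3.04, 2.998, 3.05 and 3.04, every pGRHL2 value being the higher (log2 FC 0.05 ± 0.05, limma adjusted p = 0.386). ANGPTL4 had 4.59, 4.57, 4.59 and 4.64 against 4.59, 4.61, 4.60 and 4.55, and its groups overlapped (log2 FC 0.01 ± 0.06).

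**Figure D2:**
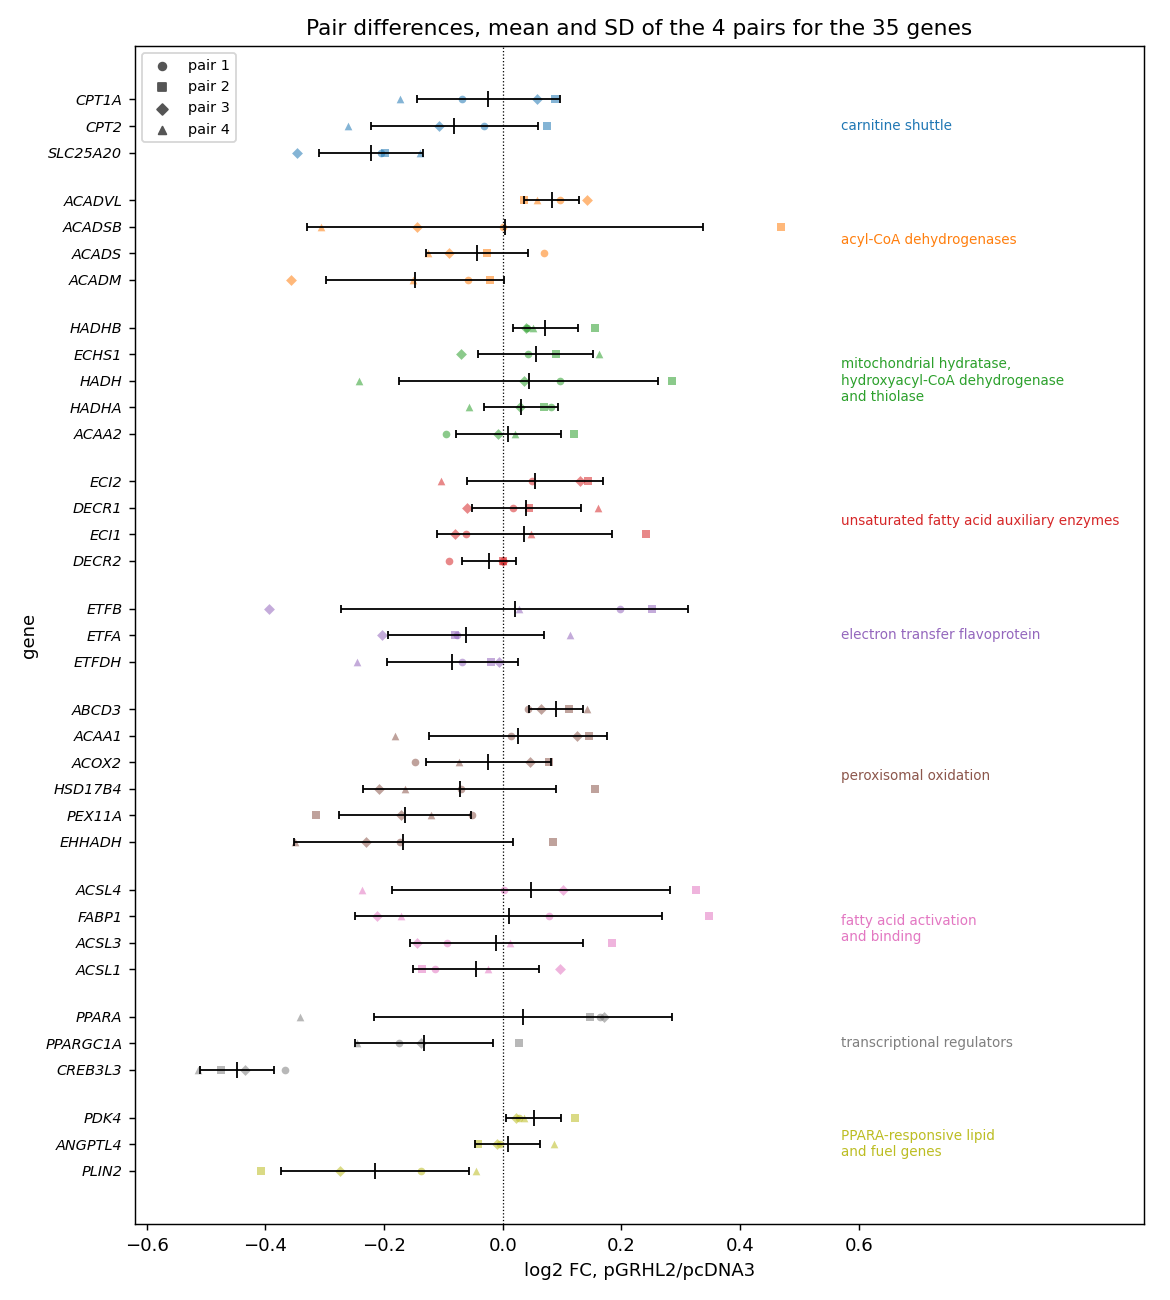
Log2 FC (pGRHL2/pcDNA3) of the 35 genes by role, with a symbol for each of the 4 pairs, the mean as a tick and the SD as a bar. CREB3L3 lies lowest at -0.45, and the means of the others lie between -0.22 and 0.09.

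Across the 35 genes, 18 had a log2 FC above 0 and 17 below, with a median of 0.0044 against 0.0017 for all genes. Groups did not overlap for 4 members higher with pGRHL2 (ACADVL, HADHB, ABCD3 and PDK4) and 6 lower (SLC25A20, ACADM, ETFDH, PEX11A, CREB3L3 and PLIN2). Among all genes 13.4% were higher and 10.5% lower in this way, so that the members' share of 28.6% stood near the 24.0% of all genes. An unadjusted limma p under 0.05 was reached by 4 of the 35 members, all lower. Of all 17561 genes, 1191 reached it lower and 1611 higher. With both directions pooled, this was 11.4% of members against 16.0% of all genes. Pooling hides that the 4 members were all lower, so these shares do not show fewer changes among members. The 95% limma interval lay within 0.5 of 0 for 34 of the 35 genes and within 0.25 for 27. Processing shrank differences of genes with few reads, which limits what the intervals of low genes such as DECR2 can show. The members were abundant genes, 30 of 35 lying above the table's median level.

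The direction of the members' changes varied between pairs. In pairs 1 to 4, 15, 24, 14 and 13 of the 35 genes were higher with pGRHL2, with medians of -0.03, 0.08, -0.06 and -0.10. Of all genes, 51.5% to 52.3% were higher in each pair. In pair 2 the hepatic markers were also higher, 5 of 5 with a median of 0.32, whereas their medians in pairs 1, 3 and 4 were -0.03, -0.09 and -0.12. The part of this in the members' values was not tested. CREB3L3 went the other way in pair 2, at -0.47.

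**Figure D3:**
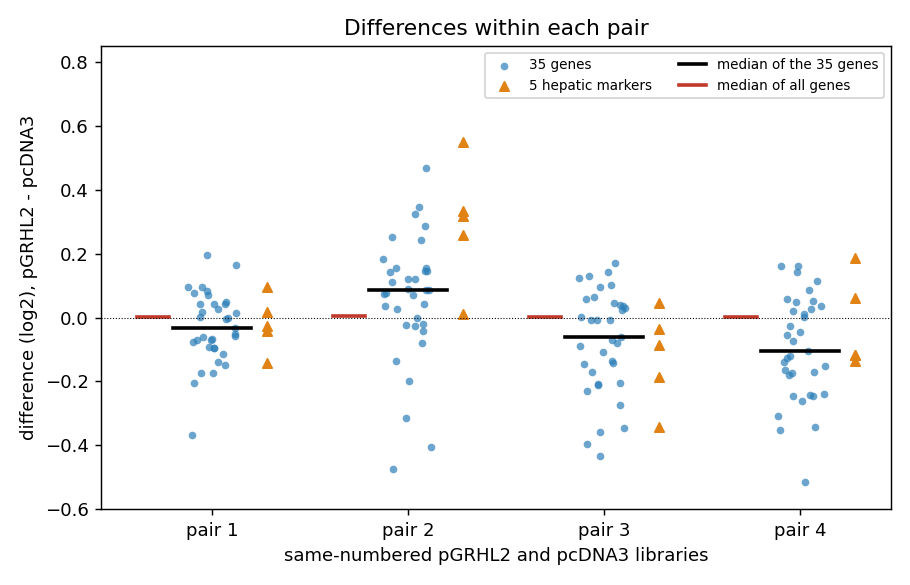
Pair differences (pGRHL2 minus pcDNA3, log2) of the 35 genes and of the 5 hepatic markers in each of the 4 pairs. In pair 2, 24 of 35 members and 5 of 5 hepatic markers were above 0.

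A wider list was also chosen with earlier results of these data known. It held 85 other genes of fatty acid oxidation, ketogenesis, uptake, regulation and PPARA response, of which 74 were in the expression table. Of these, 2 were called higher and none lower at a limma adjusted p under 0.05, against 1.69% and 0.501% of all genes. At an unadjusted limma p under 0.05 there were 6 higher and 2 lower, or 10.8% of the 74 against 16.0% of all genes. The 2 called were PLIN4 and PLIN5, which coat lipid droplets as PLIN2 does. PLIN4 had 4.16, 4.20, 4.13 and 4.16 with pGRHL2 and 3.92, 3.88, 3.95 and 3.92 with pcDNA3 (log2 FC 0.24 ± 0.05, limma adjusted p = 0.00972). PLIN5 had 3.39, 3.37, 3.36 and 3.35 against 3.21, 3.23, 3.24 and 3.24 (log2 FC 0.14 ± 0.03, limma adjusted p = 0.0318). Neither gene's groups overlapped. Both were expressed at a low level, and of all genes with a mean value under 5, 3.34% were called higher. PLIN4 lost its call without replicate 1 (limma adjusted p = 0.0565), and PLIN5 lost its call whichever replicate was left out (0.0729 to 0.16). Without the variance trend neither was called (limma adjusted p = 0.0803 for PLIN4 and 0.105 for PLIN5). They are neighbours on chromosome 19, 4.045 kb apart, and 21.7% of the exon bases of PLIN5 were shared with another annotated gene. The next smallest p-values belonged to the medium-chain acyl-CoA synthetase ACSM3 (log2 FC 0.34 ± 0.25, limma adjusted p = 0.0923), the coregulator PRDM16 (0.04 ± 0.02, 0.149) and the coactivator NCOA2 (-0.17 ± 0.09, 0.192).

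**Figure D4:**
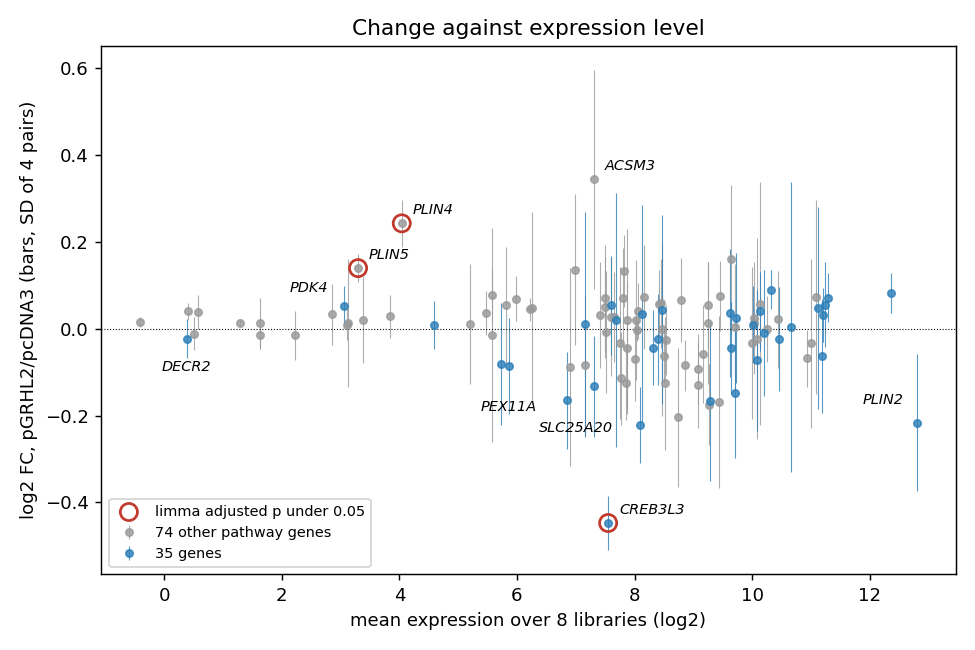
Log2 FC (pGRHL2/pcDNA3, bars the SD of 4 pairs) against mean log2 expression over 8 libraries for the 35 genes and 74 other pathway genes, with rings around those called by limma. CREB3L3 is called at a level of 7.55, whereas PLIN4 and PLIN5 are called at levels under 5.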

How the data were processed

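RNA from 8 HepG2 cultures, 4 per plasmid, was sequenced as paired-end mRNA libraries. According to the methods and the submitters' processing notes, reads were aligned to hg38 (HISAT2 2.2.1) and counted over exons without strand (HTSeq 0.9.1), then rlog-transformed (DESeq2 1.40.2) and divided by mean transcript length. These version numbers are those of the notes, and the methods name other versions of the aligner and of the rlog package. The deposited values are log2, although the authors named the table FPKM. The methods do not say on which scale the division by length was made, and the percent change given here takes the values as log2. The rlog transformation shrinks differences of genes with few reads. Depth is unknown because read counts were not analysed here, and the annotation used for counting is not given in the sources used here.

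Same-numbered libraries had the same pair mean in every pair for all 17561 genes, with a largest spread of 1.5e-13. The libraries of a pair therefore mirror each other, and pairs rather than libraries carry the replicate information. Values were tested with limma 3.58.1 in R 4.3.3 (lmFit and eBayes with trend, replicate number as block, 3 residual degrees of freedom), with Benjamini-Hochberg adjustment over all 17561 genes and a threshold of 0.05. The script was tested on simulated data. The step that made the pair means equal is not given in the sources used here.

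The 35 genes and the other lists were chosen with earlier results of these data known. All 35 are named, with values per library for those with an unadjusted p under 0.05, the 3 largest changes in each direction and 9 representatives. Of the other pathway genes, those called and the 5 with the smallest p are named. Alternatives were fits without the block, without trend, with robust eBayes, with array weights, with other centring, with a minimum mean of 5, at a threshold of 0.01 and without each replicate. Gene positions were taken from GENCODE release 44, and promoter sequences from RefSeq (GRCh38.p14). A stray trailing character was removed from 1 cell.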

Additional observations from a re-analysis of the deposited data

Results flagged for a closer look

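In 4 of 41 results, 1 pair stood apart from the other pairs by Dixon's test, which chance alone gives in about 1 of 20 groups. For PPARA it was pair 4, at a log2 difference of -0.342, where the other pairs were between 0.147 and 0.171. For HADHB it was pair 2, at 0.155, where the others were between 0.0400 and 0.0517. For PDK4 it was again pair 2, at 0.121, where the others were between 0.0230 and 0.0361. For DECR2 it was pair 1, at -0.0914, where the others lay between -0.0004 and 0.0003.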

How the results depend on the processing

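Without the replicate block, 2 of the 35 genes were called higher (ACADVL and ABCD3) and 5 lower (CREB3L3, SLC25A20, PEX11A, PPARGC1A and PLIN2), 5 and 4 other pathway genes were called higher and lower, and 1821 and 1427 of all genes. That fit treats mirrored libraries as separate. Without the variance trend, 0 members were called lower, 0 other pathway genes higher, and 4 and 2 of all genes higher and lower. With robust eBayes CREB3L3 remained the 1 member called (limma adjusted p = 0.00511), with 345 and 111 of all genes higher and lower. Array weights gave 503 and 221 of all genes, and turned ACAA2 to -0.0048. A mean value of at least 5 left 0 other pathway genes and 63 of all genes called higher. Setting library totals equal without GRHL2 gave 495 of all genes higher and turned ACSL3 to 0.0027. At a threshold of 0.01, 1 other pathway gene was higher, and 77 and 10 of all genes were higher and lower. Leaving out each replicate in turn gave 79 to 156 genes higher and 8 to 68 lower, 0 to 1 of them other pathway genes called higher, and 1 member called lower each time. The log2 FC then changed sign for 15 members, none of them called. These were CPT1A (-0.0613 to 0.0254), ACADSB (-0.150 to 0.108), HADH (-0.0365 to 0.139), ACAA2 (-0.0276 to 0.0439), ECI1 (-0.0315 to 0.0756), DECR1 (-0.0002 to 0.0733), DECR2 (-0.0305 to 0.0001), ETFB (-0.0568 to 0.158), ACOX2 (-0.0589 to 0.0165), ACAA1 (-0.0143 to 0.0948), ACSL3 (-0.0756 to 0.0339), ACSL4 (-0.0450 to 0.143), FABP1 (-0.102 to 0.0843), PPARA (-0.0107 to 0.160) and ANGPTL4 (-0.0183 to 0.0248). The cause was not tested. Depth is unknown, and rlog shrinkage limits what low genes such as DECR2 can show.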
